A study of Homo sapiens with 6 samples.

Results

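The Wnt antagonists described here are 10 genes, the secreted frizzled-related proteins SFRP1, SFRP2 and FRZB, the Dickkopf genes DKK1, DKK3 and DKK4, the Wnt inhibitory factor WIF1, and the DACT genes DACT1, DACT2 and DACT3. They were taken by gene symbol from a table of 58830 genes, in which all 10 were found. RNA-seq of total RNA measured them in 6 libraries of HuES8, a human embryonic stem cell line, after 3 days of differentiation towards definitive endoderm, the germ layer of gut, liver and pancreas. All cultures had 100 ng/mL Activin A throughout, which stands in for the endoderm-inducing ligand Nodal, and on the first day also 2.5 µM CHIR, a GSK3 inhibitor that switches on Wnt signalling inside the cell. The groups were 3 wild-type libraries (DE) and 3 libraries with the antisense RNA GATA6-AS1 knocked down (KD). The labels give neither the means of knockdown nor the control, if any, that DE cells had. They also do not say whether each replicate was its own culture, and the spread behind the p-values may be technical.

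Wnt ligands act by joining a frizzled receptor to the co-receptors LRP5 or LRP6, which recruits dishevelled and stops the breakdown of beta-catenin. SFRP proteins and WIF1 bind Wnt ligands outside the cell, SFRP proteins through a domain that resembles the ligand-binding part of frizzled. DKK1 and DKK4 bind LRP5 and LRP6 instead, together with the Kremen receptors, while DKK3 is a divergent member of that family. DACT proteins work inside the cell and bind dishevelled, and DACT2 is also known for promoting the breakdown of Nodal and TGF-beta receptors. Several of these antagonists are themselves switched on by Wnt signalling and by the factors that pattern early endoderm, where they limit the signal.

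The values were TPM, which scale each gene for its length and for the total of its library, so levels of different genes can be compared. Over the 37138 of 58830 genes that could be matched to one annotated length, they stood for between 18640821 and 24510594 estimated reads per library, which leaves out the reads of the other genes. Transcripts of mitochondrial DNA took 24.6% to 38.04% of TPM in DE and 28.3% to 36.2% in KD, with replicate 3 highest in both groups, which left less of the fixed TPM total for all other genes together there. GATA6-AS1 ran from 313 to 421 TPM over the DE libraries and from 126 to 180 TPM over the KD libraries, so the knocked-down RNA was lower in every library labelled KD. All 12 definitive endoderm markers listed were lower in KD, and 5 passed the test, beside 3.27% of all genes tested. The markers summed to 25122 to 28807 TPM in DE and 18213 to 20017 TPM in KD. CER1 alone made up most of these sums, with 22060 to 25177 TPM in DE and 16124 to 17651 TPM in KD. Of 10 pluripotency markers 7 rose, with sums of 2626 to 3223 TPM in DE and 3758 to 4191 TPM in KD. Markers of other cell types had smaller sums, and in 4 of 5 lists these sums did not overlap between the groups. As single genes, 20.8% of all genes tested did not overlap. Mesoderm markers summed to 157 to 199 TPM in DE and 221 to 236 TPM in KD (T, KDR and TBX5 rose, HAND1 fell), and neuroectoderm markers to 125 to 169 and 171 to 190 TPM (DLK1 fell). KDR was the largest part of the mesoderm sums, at 73.5 to 94.1 TPM in DE and 119 to 126 TPM in KD. NES was that of the neuroectoderm sums, at 90.9 to 131 and 130 to 152 TPM, which overlapped and did not pass. Trophoblast and amnion markers summed to 65.3 to 69.2 TPM in DE and 52.5 to 56.0 TPM in KD (GATA2 and TFAP2C rose, GATA3 fell), and visceral and yolk sac endoderm markers to 12.6 to 18.1 and 6.59 to 8.89 TPM (APOA2 fell). In the trophoblast and amnion sums GATA3 was the largest part in DE (35.9 to 43.1 TPM) and TFAP2C in KD (21.4 to 24.1 TPM). Fibroblast feeder markers overlapped, at 33.8 to 45.2 and 30.8 to 43.5 TPM, and none of the 3 tested passed (0 also at an unadjusted p under 0.05 in limma). With the replicate number as a block in the test, 10 endoderm markers passed as lower and the same 7 pluripotency markers as higher. SOX3 then also passed as higher and ISL1 and AMN as lower, where 12.5% of all genes tested passed. No marker was at 0 in all libraries. Of 8 fibroblast markers COL3A1, POSTN, LUM, DCN and FAP stayed below 1 TPM throughout, while COL1A1 had 12.0 to 20.9 TPM and COL1A2 16.2 to 24.0 TPM. Of 8 visceral and yolk sac markers AFP, TTR and APOB stayed below 1 TPM throughout, while APOA2 had 1.62 to 6.21 TPM and AMN 2.40 to 7.91 TPM. In such bulk samples fewer cells of a type and less RNA per cell cannot be told apart, and the part of these shifts in the results on Wnt antagonists was not tested.

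In both families with members that passed the test, one paralogue rose and another fell. SFRP2 and DACT1 were higher in KD, and SFRP1 and DACT2 were lower. In the deposited TPM the summed RNA of each pair overlapped between the groups, while its make-up did not. That the make-up separated follows from picking pairs whose members changed in opposite directions. Without mitochondrial genes the sum of DACT1 and DACT2 was higher in every KD library than in any DE library. The sum of SFRP1 and SFRP2 still overlapped there.

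Because DACT1 and DACT2 moved furthest apart, the DNA just upstream of their annotated starts is shown, as the RefSeq tables give it for GRCh38.p14, 5′ to 3′ on the strand of the gene. The DACT1 stretch is chr14:58633811-58633966 on the plus strand and the DACT2 stretch is chr6:168319778-168320027 on the minus strand, and both end before the first exon of GENCODE 29. Capitals mark a word of the TCF/LEF motif, which was searched on both strands as the word CTTTGAA and with a final T in its place, as the word CTTTGAT.
DACT1: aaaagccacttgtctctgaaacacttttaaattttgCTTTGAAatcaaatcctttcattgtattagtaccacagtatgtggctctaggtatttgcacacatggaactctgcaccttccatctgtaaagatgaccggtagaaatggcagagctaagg
DACT2: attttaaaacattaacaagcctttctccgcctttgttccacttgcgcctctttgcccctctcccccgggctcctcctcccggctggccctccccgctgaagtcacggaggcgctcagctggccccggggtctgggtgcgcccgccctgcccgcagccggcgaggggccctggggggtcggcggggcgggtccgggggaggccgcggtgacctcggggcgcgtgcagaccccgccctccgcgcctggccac

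The 250 bases before the DACT2 start were rich in G and C, 73.2% with 25 CpG sites, against a median of 58.0% and 11 CpG sites over 35116 promoters. DACT1 has 3 annotated starts, and these data do not say which was used. The 156 bases shown for the outermost were poor in G and C (39.1%, 1 CpG site). The whole window of 250 bases there, of which 94 are exonic and not shown, held 40.8% and 3 CpG sites, and the inner windows held 78.4% and 69.6%. Windows were found by symbol for 7 of the 10 antagonists, 10 windows in all. A TCF/LEF word lay in 2 of them, the DACT1 window shown and that of DKK1, and 5.94% of all promoters held one. The GATA motif was searched on both strands as the word AGATAA, and also with its first letter changed to T, with its last letter changed to G, or with both changes. Such words lay in 2 windows, one of FRZB and one of DACT3, against 22.3% of all promoters. The motifs can overlap, since some TCF/LEF words end in the first letters of a GATA word. These matches are descriptions of short windows and not binding sites.

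Wild-type endoderm held 3 of the 10 antagonists at far higher levels than the rest. SFRP1 was highest at 535 ± 70.0 TPM (SD, n = 3, as for all means here), followed by DKK4 at 389 ± 54.2 TPM and SFRP2 at 304 ± 31.2 TPM. DACT2, DACT1, DKK3, DKK1 and FRZB came next, between 44.6 and 5.61 TPM. DACT3 at 0.532 ± 0.199 TPM and WIF1 at 0.0635 ± 0.0659 TPM lay below the 1 TPM that a gene needed in 3 libraries to be tested. In DE the library ranges of neighbours in this order did not overlap except for DACT1 and DKK3. In KD the order became SFRP2, DKK4, SFRP1, DACT1, DACT2, DKK3, DKK1, FRZB, DACT3 and WIF1, and the ranges of DACT2 and DKK3 overlapped. For comparison CER1, a secreted antagonist of Nodal and BMP ligands and a marker of anterior endoderm, stood at 23570 ± 1560 TPM in DE.

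**Figure D1:**
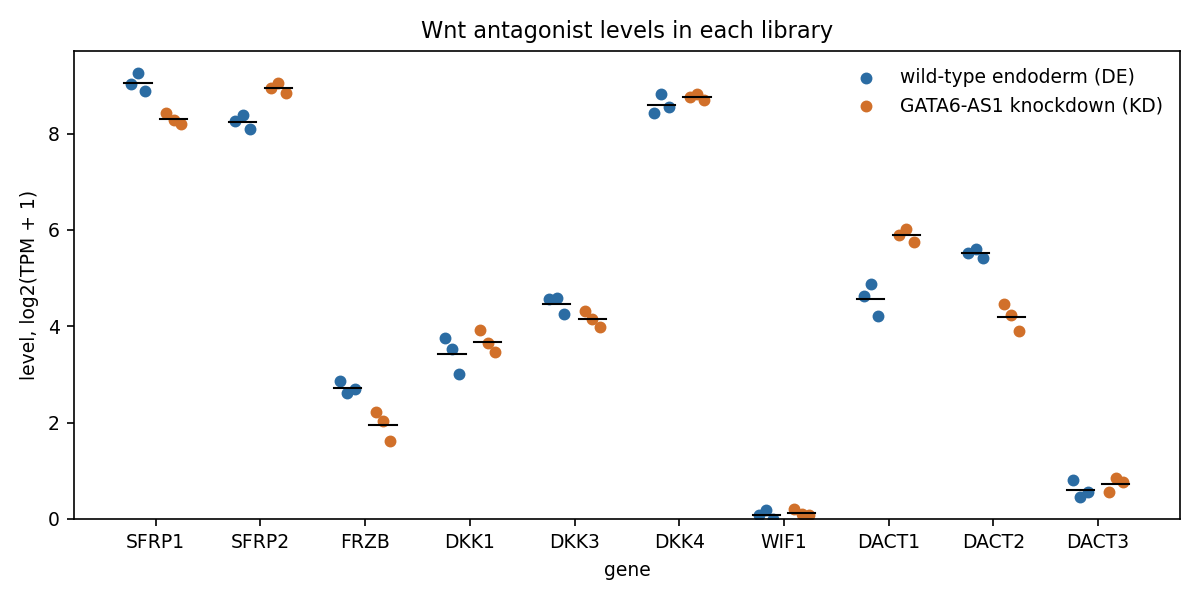
Level of each antagonist on the log2(TPM + 1) scale (vertical axis) in the 3 DE libraries (blue) and the 3 KD libraries (orange), with black lines at the mean of these log2 values. SFRP1, SFRP2 and DKK4 form the top tier in both groups, SFRP1 and SFRP2 exchange places, as do DACT1 and DACT2, and WIF1 lies at or near 0.

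Of the 8 antagonists with enough RNA to be tested, 2 rose (SFRP2, DACT1), 2 fell (SFRP1, DACT2) and 4 did not pass an adjusted p of 0.05 in limma, a linear model fitted to all 17711 genes tested. Over all genes 3.27% passed, 1.77% higher and 1.5% lower in KD. The median log2 change of the 8 was -0.08, against -0.01 for all genes tested. TPM of the groups did not overlap for 5 of the 8 tested, the 4 that passed and FRZB, and for 20.8% of all genes tested. DACT3 and WIF1, which were not tested, overlapped. With the replicate number as a block in the model, FRZB and DKK3 also passed as lower, giving 2 higher and 4 lower, where 12.5% of all genes passed (5.88% higher and 6.62% lower). The 2-sided exact permutation test of 3 against 3 libraries cannot go below 0.1, and it gave 0.1 for SFRP1, SFRP2, FRZB, DACT1 and DACT2 (0.2 adjusted over the 10).

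**Figure D2:**
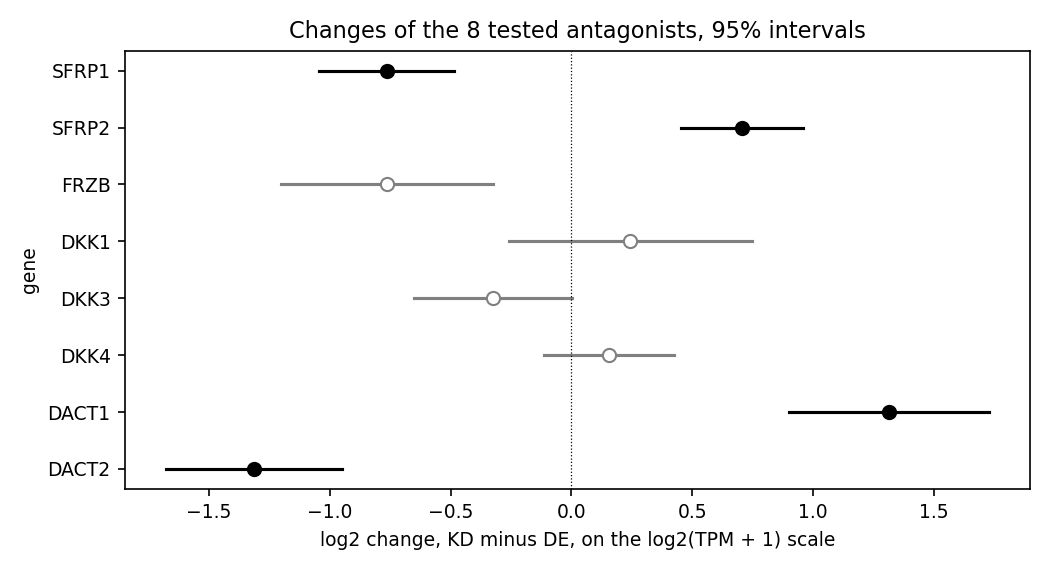
Log2 change (KD minus DE, on the log2(TPM + 1) scale, horizontal axis) of the 8 tested antagonists with 95% intervals from limma, filled black where the adjusted p was under 0.05. SFRP1 and DACT2 lie left of 0 and SFRP2 and DACT1 right of it, while the intervals of DKK1, DKK3 and DKK4 include 0.

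SFRP1 lies on chromosome 8 (GRCh38, 41261958 to 41309497, minus strand, as all positions here from GENCODE 29). It had 523, 610 and 472 TPM in DE replicates 1 to 3, against 341, 308 and 291 TPM in KD replicates 1 to 3. Every KD library was below every DE library. The mean fell to 314 ± 25.2 TPM, 0.586 of the DE mean, a log2 change of -0.76 (SE 0.119, limma adjusted p = 0.0202). The 1-library-out fits kept the sign, with changes from -0.85 to -0.67, but passed only without DE replicate 3. The limma adjusted p was 0.101 without DE replicate 1, 0.0561 without DE replicate 2, and 0.0589, 0.116 and 0.0621 without KD replicates 1, 2 and 3.

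SFRP2, on chromosome 4 (153780592 to 153789120, minus strand), had 306, 333 and 271 TPM in DE replicates 1 to 3, against 493, 532 and 460 TPM in KD replicates 1 to 3. The lowest KD library was well above the highest DE library. The mean rose 1.63-fold to 495 ± 35.8 TPM, a log2 change of 0.71 (SE 0.107, limma adjusted p = 0.0196). It did not pass without DE replicate 1 (limma adjusted p = 0.0985), KD replicate 1 (0.0746) or KD replicate 2 (0.116), with log2 changes of 0.71, 0.71 and 0.65.

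The summed RNA of both genes overlapped between the groups. SFRP1 and SFRP2 together had 839 ± 101 TPM in DE against 808 ± 49.3 TPM in KD. SFRP2 made up 36.9%, 35.3% and 36.5% of this sum in DE replicates 1 to 3, against 59.1%, 63.3% and 61.2% in KD replicates 1 to 3. The ratio of SFRP2 to SFRP1 was 0.585, 0.546 and 0.575 in DE and 1.44, 1.72 and 1.58 in KD. Such ratios within a library do not depend on its total, whatever part of it is mitochondrial. Their separation, here and for DACT1 and DACT2 below, follows from pairing genes that changed in opposite directions. It describes those changes and adds no test.

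FRZB, also called SFRP3, was the least abundant of the tested antagonists. It lies on chromosome 2 (182833275 to 182867162, minus strand) and had 6.28, 5.12 and 5.43 TPM in DE replicates 1 to 3, against 3.65, 3.11 and 2.07 TPM in KD replicates 1 to 3, without overlap. These values stood for 142, 104 and 111 reads in DE and 65, 64 and 53 reads in KD. The log2 change of -0.76 (95% interval -1.20 to -0.33) did not pass (limma adjusted p = 0.0817) and passed with the replicate block (limma adjusted p = 0.0221). With a pseudocount of 0.1 in place of 1 the change was -0.94, since adding 1 TPM weighs on so low a gene.

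WIF1, on chromosome 12 (65050626 to 65121566, minus strand), was read 1, 2 and 0 times in the DE libraries and 2, 1 and 1 times in the KD libraries. A difference between the groups was not detectable at this depth.

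The Dickkopf genes did not pass in the test without a block. DKK4, on chromosome 8 (42374068 to 42377232, minus strand), had 345, 450 and 373 TPM in DE replicates 1 to 3, against 430, 451 and 414 TPM in KD replicates 1 to 3. The groups overlapped, and the log2 change of 0.16 had a 95% interval of -0.11 to 0.42 (limma adjusted p = 0.652). DKK1, on chromosome 10 (52314296 to 52318042, plus strand), had 12.4, 10.6 and 7.09 TPM in DE replicates 1 to 3, against 14.2, 11.5 and 9.98 TPM in KD replicates 1 to 3. Replicate 3 was the lowest of its group in both, and the groups overlapped. Its log2 change was 0.24, with a 95% interval of -0.26 to 0.75 (limma adjusted p = 0.736).

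DKK4 RNA was 27.8, 42.4 and 52.7 times that of DKK1 in the DE libraries and 30.2, 39.3 and 41.4 times in the KD libraries. Both genes encode ligands of LRP5 and LRP6, and DKK4 was the main RNA of that kind in every library. The co-receptors LRP5 and LRP6 did not pass, with log2 changes of -0.04 (95% interval -0.33 to 0.25) and 0.01 (-0.43 to 0.45), and the Kremen receptors KREMEN1 and KREMEN2 had -0.15 and -0.12 and did not pass either (limma adjusted p = 0.746 and 0.932).

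DKK3, on chromosome 11 (11963106 to 12009769, minus strand), had 22.7, 22.8 and 18.1 TPM in DE replicates 1 to 3, against 18.8, 16.6 and 14.8 TPM in KD replicates 1 to 3. DE replicate 3 lay below KD replicate 1, so the groups overlapped. The log2 change of -0.32 (95% interval -0.65 to 0.00) did not pass (limma adjusted p = 0.327) and passed with the replicate block (limma adjusted p = 0.0405). Replicate 3 had the largest mitochondrial share in both groups. With TPM recomputed without mitochondrial genes, DKK3 had 31.8, 30.3 and 29.2 TPM in DE replicates 1 to 3, against 26.2, 23.4 and 23.2 TPM in KD replicates 1 to 3, without overlap, and passed (limma adjusted p = 0.0472), as did FRZB (limma adjusted p = 0.0333).

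DACT1 showed the largest rise among the antagonists. It lies on chromosome 14 (58633967 to 58648321, plus strand) and had 23.8, 28.3 and 17.5 TPM in DE replicates 1 to 3, against 58.7, 63.4 and 52.8 TPM in KD replicates 1 to 3. The lowest KD library was far above the highest DE library. The mean rose 2.51-fold, from 23.2 ± 5.44 to 58.3 ± 5.30 TPM, a log2 change of 1.31 (SE 0.176, limma adjusted p = 0.0136). It did not pass without DE replicate 1 (limma adjusted p = 0.0691), KD replicate 1 (0.0541) or KD replicate 2 (0.0795), with log2 changes of 1.34, 1.31 and 1.25. The exons of DACT1 share 378 bases, 8.42% of their length, with LINC01500 on the same strand, which had at most 0.137 TPM in any library.

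DACT2, on chromosome 6 (168292830 to 168319754, minus strand), had 44.7, 47.8 and 41.4 TPM in DE replicates 1 to 3, against 21.1, 17.7 and 14.0 TPM in KD replicates 1 to 3. No KD library came near the DE range. The mean fell to 17.6 ± 3.58 TPM, 0.394 of that in DE, a log2 change of -1.31 (SE 0.155, limma adjusted p = 0.00925), the largest fall among the antagonists. Without DE replicate 1 or KD replicate 2 the limma adjusted p was 0.0589 or 0.0528, with log2 changes of -1.31 and -1.32. None of the 8 antagonists passed without either of these libraries, where limma gave 2 higher and 3 lower at an unadjusted p under 0.05. Of all genes tested, 5.97% were higher and 5.1% lower at that limit without DE replicate 1, and 4.61% and 6.4% without KD replicate 2.

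DACT1 and DACT2 together had 67.9 ± 8.66 TPM in DE against 75.9 ± 7.91 TPM in KD. DACT1 made up 34.8%, 37.2% and 29.7% of this sum in DE replicates 1 to 3, against 73.5%, 78.2% and 79.1% in KD replicates 1 to 3, so the main DACT transcript was DACT2 in every DE library and DACT1 in every KD library. The ratio of DACT1 to DACT2 went from 0.516 ± 0.0859 to 3.38 ± 0.530. With TPM recomputed without mitochondrial genes, mean DACT1 went from 33.1 to 84.6 TPM and mean DACT2 from 64.3 to 25.4 TPM. The sum of both was then higher in every KD library than in any DE library, unlike in the deposited TPM. DACT3, on chromosome 19 (46647612 to 46661138, minus strand), added little, with 29, 13 and 16 reads in DE and 14, 28 and 30 reads in KD, which overlapped. Dishevelled, the partner of DACT proteins, showed no call, with log2 changes of -0.08 for DVL1, -0.06 for DVL2 and -0.10 for DVL3 (limma adjusted p = 0.941, 0.951 and 0.732).

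**Figure D3:**
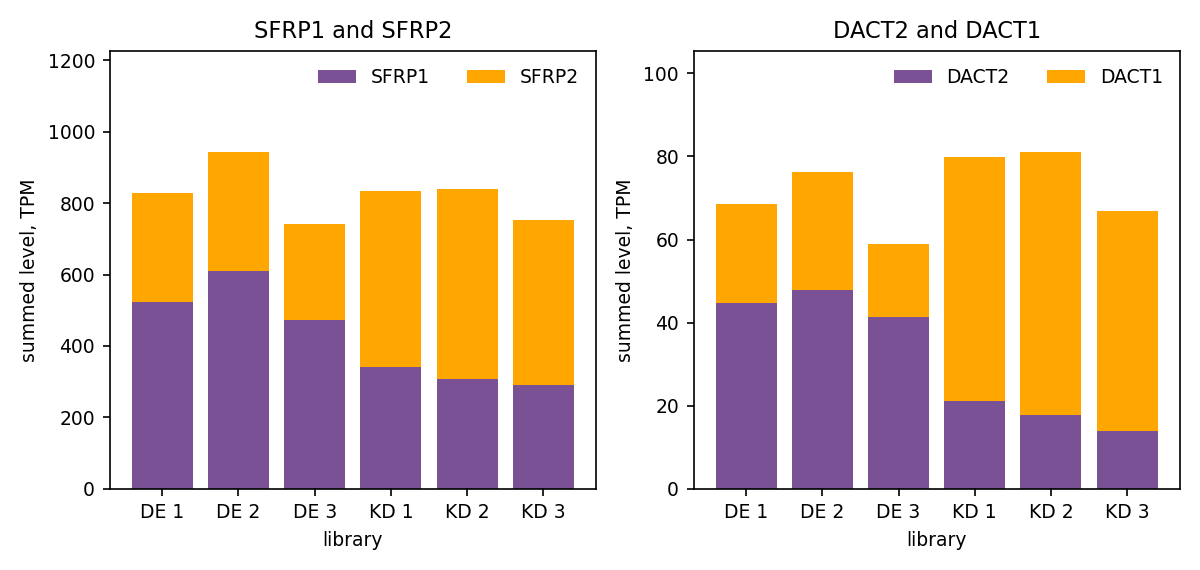
Stacked bars of TPM in each of the 6 libraries for SFRP1 (purple) and SFRP2 (orange) on the left and DACT2 (purple) and DACT1 (orange) on the right. The heights overlap between DE and KD. SFRP2 is at most 36.9% of a DE bar and at least 59.1% of a KD bar, and DACT1 at most 37.2% and at least 73.5%.

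Summed over all 10 antagonists, RNA was 1333 ± 157 TPM in DE against 1348 ± 77.5 TPM in KD. SFRP1 took 40.1% of that sum in DE and 23.3% in KD, SFRP2 22.8% and 36.7%, and DKK4 29.2% and 32.0%.

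The genes whose 6 values ran closest to those of the antagonists that passed were sought among 11761 others of at least 5 TPM on average, by the root mean square distance of log2(TPM + 1) after each gene was centred on its own mean. For SFRP1 these were TDRD7 (distance 0.0346), a component of germ granules, and the frizzled receptor FZD8 (0.0406). For SFRP2 they were SCAMP5 (0.0344), a secretory vesicle protein, and the transcription factor TFAP2C (0.0359). For DACT1 they were the homeobox gene NKX1-2 (0.0731) and TRIM62 (0.0945). For DACT2 they were VWF (0.0795), the von Willebrand factor, and GATA6-AS1 itself (0.0812). GATA6-AS1 had a log2 change of -1.26 beside -1.31 for DACT2, and its mean in KD was 0.418 of that in DE beside 0.394 for DACT2. With 6 libraries in 2 groups many genes share such a profile, and closeness here is a description only.

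Other genes of the Wnt pathway were taken from 6 lists, 112 genes of which 84 were tested. In all, 1 rose and 4 fell, beside 1.77% higher and 1.5% lower over all genes tested, with a median log2 change of -0.07. With the replicate block 8 rose and 18 fell, beside 5.88% and 6.62% over all genes. At an unadjusted p under 0.05 in limma 11 were higher and 19 lower, beside 7.27% and 8.15% over all genes, which is also the background of the unadjusted counts given for each list below. The 5 that passed were T, CER1, FZD8, ROR2 and LGR5, and each lost its call without DE replicate 1 or any 1 KD library.

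Among 7 tested genes listed as other secreted Wnt antagonists, CER1 fell and none rose (limma gave 3 higher and 2 lower at an unadjusted p under 0.05). The list holds CER1 although it is described above as an antagonist of Nodal and BMP ligands, and its action on Wnt was not tested. CER1 had 23474, 25177 and 22060 TPM in DE replicates 1 to 3, against 17651, 16124 and 16669 TPM in KD replicates 1 to 3, a log2 change of -0.49 (limma adjusted p = 0.0406). It did not pass in any of the 6 fits without 1 library (limma adjusted p from 0.0544 to 0.200), nor under quantile normalization (0.184), median-ratio scaling (0.114), a filter at a mean of 5 TPM (0.0507), no filter (0.716) or eBayes without trend (0.0703), with log2 changes from -0.53 to -0.44. IGFBP4, a secreted protein that binds frizzled and LRP6, had a log2 change of 0.37 and DRAXIN, a guidance factor that binds LRP6, had 0.49. TRABD2B, a protease that cleaves Wnt ligands, had -0.35. These did not pass (limma adjusted p = 0.202, 0.0904 and 0.114) and passed with the replicate block (0.0132, 0.0294 and 0.0328).

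None of 9 membrane inhibitors and DKK receptors passed (limma gave 1 higher and 2 lower at an unadjusted p under 0.05). SHISA2, which holds frizzled in the endoplasmic reticulum, had 143 ± 37.0 TPM in DE against 89.3 ± 25.4 TPM in KD (limma adjusted p = 0.267, with the replicate block 0.0119). SHISA3 of the same family also passed as lower with the block. TPBG and APCDD1, which restrain Wnt signalling at the cell surface, had log2 changes of 0.07 and 0.27 (limma adjusted p = 0.932 and 0.258).

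None of 9 ligand and secretion genes passed (1 higher and 4 lower at an unadjusted p under 0.05 in limma). WNT3, the most abundant ligand of the list, had 49.8 ± 5.60 TPM in DE against 68.1 ± 1.87 TPM in KD, a log2 change of 0.45 (limma adjusted p = 0.0767, with the replicate block 0.0164). PORCN, which attaches the lipid that Wnt ligands need, and WLS, which carries them to the surface, had log2 changes of -0.50 and -0.54 (limma adjusted p = 0.262 and 0.104, with the replicate block 0.00984 and 0.00458). WNT11 also passed as lower with the block.

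Of 19 receptors and agonists, 3 fell and none rose (limma gave 1 higher and 5 lower at an unadjusted p under 0.05). FZD8 fell from 111 ± 14.3 to 68.1 ± 5.52 TPM, ROR2, a receptor of beta-catenin-independent Wnt signalling, from 181 ± 18.5 to 118 ± 9.52 TPM, and LGR5, a receptor of the Wnt-enhancing R-spondins, from 5.12 ± 0.450 to 2.19 ± 0.151 TPM (limma adjusted p = 0.0298, 0.0351 and 0.0166). Without 1 library each passed only where DE replicate 3 was the one left out, and the limma adjusted p in the other 5 fits ran from 0.0762 to 0.142 for FZD8, 0.0925 to 0.168 for ROR2 and 0.0571 to 0.101 for LGR5. With no filter on low values none of these 3 passed (limma adjusted p = 0.0722, 0.0839 and 0.0609), nor did ROR2 with eBayes without trend (0.0601). FZD5 and FZD7, the most abundant frizzled genes, had log2 changes of -0.56 each (limma adjusted p = 0.149 and 0.390) and passed with the replicate block, as did FZD2. PTK7, a co-receptor of planar polarity, had a log2 change of 0.01.

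None of 23 genes of dishevelled, the destruction complex and planar polarity passed (limma gave 0 higher and 4 lower at an unadjusted p under 0.05). CTNNB1, which encodes beta-catenin, had 292 ± 54.7 TPM in DE against 248 ± 33.5 TPM in KD (limma adjusted p = 0.649). VANGL2 and CSNK1E had log2 changes of -0.14 each. With the replicate block NKD2, APC and AXIN2 passed as lower, and none as higher.

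Of 17 TCF factors and Wnt targets, T, the brachyury gene, rose from 35.8 ± 2.95 to 56.4 ± 2.06 TPM (limma adjusted p = 0.0196) and none fell (limma gave 5 higher and 2 lower at an unadjusted p under 0.05). The limma adjusted p of T was 0.116 without DE replicate 1, and 0.0858, 0.128 and 0.0577 without KD replicates 1, 2 and 3. CCND1, which encodes cyclin D1, had 82.0 ± 14.0 TPM in DE against 137 ± 17.1 TPM in KD (limma adjusted p = 0.0525, with the replicate block 0.00178). MIXL1 and TCF7L1 had log2 changes of -0.06 and -0.02. With the block 5 rose, T, EVX1, MYC, CCND1 and BAMBI, and 2 fell, TCF7L2 and TLE2. Some Wnt targets were counted in other lists and are left out here. Among them LGR5, AXIN2 and NKD2 were lower in KD (log2 changes of -0.94, -0.34 and -0.39). RNF43 and ZNRF3 were higher (0.19 and 0.12), and only LGR5 of these genes passed without the block.

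**Figure D4:**
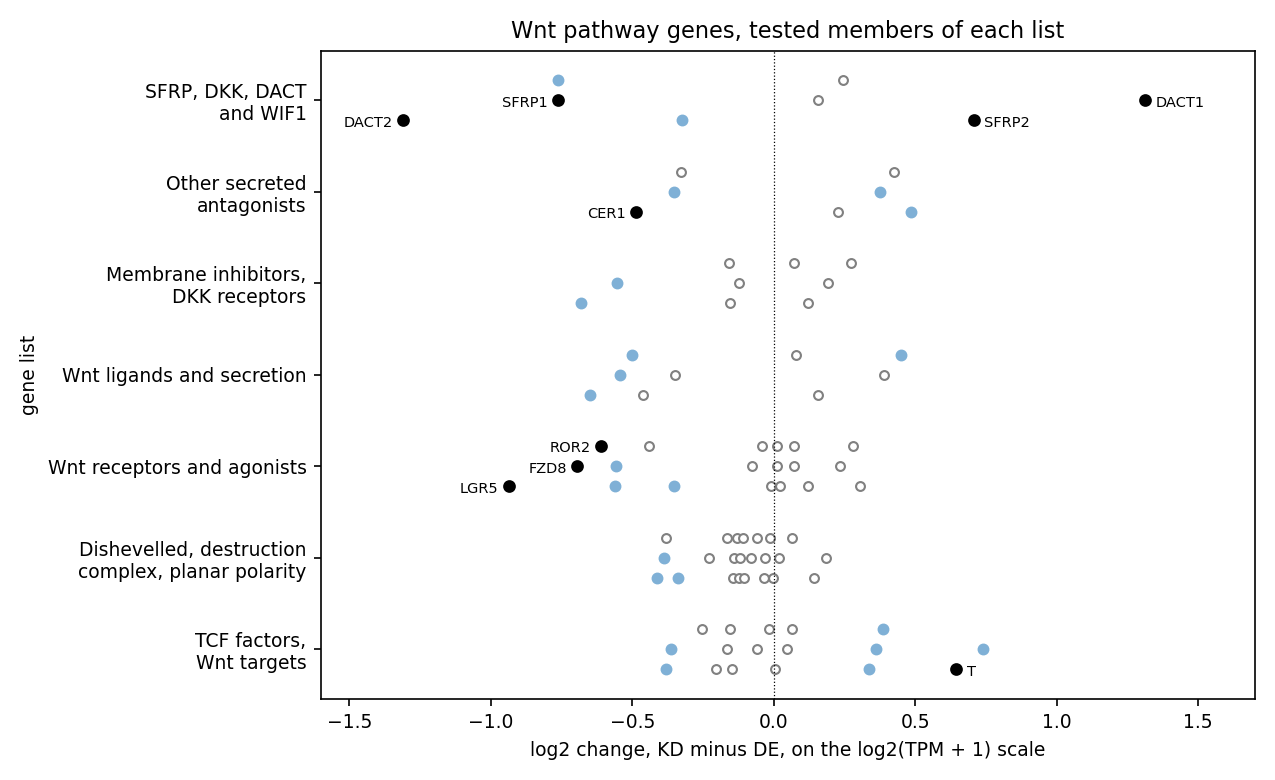
Log2 change (KD minus DE, on the log2(TPM + 1) scale, horizontal axis) of every tested gene in the list of antagonists and the 6 pathway lists (rows; height within a row only separates points). Black named points passed in limma, blue points passed only with the replicate block, and open points did not pass. DACT1 and DACT2 lie further from 0 than any tested gene of the pathway lists.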

How the data were processed

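The deposited TPM of 58830 genes in 6 libraries were scaled by the authors. HISAT2 2.1.0, DESeq2, featureCounts and GRCh38 are named, without their steps, per the submitters' processing notes. Strand setting and annotation are not given there, so reads of overlapping genes, such as the 212 exonic bases that DKK1 shares with PRKG1-AS1, could not be told apart. Genes that reached 1 TPM in 3 or more libraries were tested as log2(TPM + 1), so changes of low genes are understated, with limma 3.58.1 in R 4.3.3 (group as the term, eBayes with trend, 2-sided, Benjamini-Hochberg over 17711 genes, threshold 0.05). The fit was tested on simulated data with noise drawn separately for each gene, so shifts shared by a whole library were left out. The changed genes were drawn from the more abundant ones only, and rates in the real data can differ. It recovered 9 of 67 log2 changes of 0.5, 50 of 67 of 1 and 61 of 66 of 2. Of 17511 unchanged genes 5 were called. Most changes of 0.5 were thus missed, so a gene that did not pass is not shown to be unchanged. The rest used Python 3.11.15, scipy 1.17.1 and matplotlib 3.10.9.

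TPM keep no depth. TPM multiplied by GENCODE 29 exon length came in steps of 1 read, and 88.2% to 89.0% of values under 50 reads over 37138 matched genes lay within 0.02 of a whole number. All 60 values of the antagonists lay within 0.001.

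The titles number replicates 1 to 3 in both groups. After group means were removed, same-numbered libraries correlated at 0.108, 0.144 and 0.347 over genes, all above the limit of 0.1. Blocked values or counts are therefore given where they change a call. DE replicate 2 and KD replicate 1 correlated at 0.121, so the pairing of replicates 1 and 2 is uncertain.

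The members, lists and tests were chosen with earlier results of these data known. Named were all 10 antagonists, GATA6-AS1 and GATA6, and from each pathway list the genes that passed and up to 3 more with the highest mean. Further genes of small counts, LRP5, LRP6, RNF43, ZNRF3, the Kremen and DVL genes were named after their values were seen. GATA6 had a log2 change of -0.66 (limma adjusted p = 0.0648, with the block 0.00500). Alternatives were other pseudocounts, filters, scalings and variance models, the block, and leaving out libraries.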

Additional observations from a re-analysis of the deposited data

How the results depend on the processing

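The sign of the change held for all 8 tested antagonists under each alternative run that included them. FRZB was not in the fit with a filter at a mean of 5 TPM. DACT1 ranged from 1.13 to 1.46, DACT2 from -1.45 to -1.16, SFRP1 from -0.85 to -0.67 and SFRP2 from 0.63 to 0.78 on the log2 scale. DKK1 (0.04 to 0.40) and DKK4 (0.07 to 0.26) passed under none. Counts of antagonists were 1 higher and 1 lower with no filter on low values (DACT1 and DACT2), and 2 higher and 4 lower under quantile normalization, median-ratio scaling, TPM without mitochondrial genes and the replicate block. Leaving out 1 library gave 0 to 2 higher and 0 to 2 lower. Counts of all genes higher and lower were 132 and 107 with no filter, 860 and 875 under quantile normalization, 879 and 864 under median-ratio scaling, 880 and 820 without mitochondrial genes, 1042 and 1173 with the replicate block (pairing by number), and 507 and 705 without replicate 3 of both groups, against 314 and 265 in the main test. Leaving out 1 library gave 61 to 248 higher and 24 to 362 lower, and the cause was not tested. Among pathway genes that did not pass, leaving out 1 library turned the sign of TPBG (-0.0569 to 0.1952), PTK7 (-0.0557 to 0.0643), MIXL1 (-0.1083 to 0.0072) and TCF7L1 (-0.066 to 0.0141), and PTK7 had -0.0032 without replicate 3 of both groups. With DACT3 and WIF1 at 0 to 30 reads, depth limits what can be said of them.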
